A study of Homo sapiens with 6 samples.

Results

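Epithelial-to-mesenchymal transition (EMT) is the change by which epithelial cells loosen their junctions and take on a migratory, mesenchymal form. It is driven by zinc-finger repressors of the SNAI and ZEB families and by bHLH factors of the TWIST family, which bind E-boxes in DNA and lower E-cadherin and other epithelial genes. Vimentin, an intermediate filament protein, and fibronectin, a matrix glycoprotein, are the proteins most often used to mark the mesenchymal end state. The genes described here are the EMT transcription factors SNAI1, SNAI2, TWIST1, TWIST2, ZEB1 and ZEB2 together with VIM and FN1, which encode vimentin and fibronectin. They were chosen by gene symbol, and all 8 are among the 23228 genes listed in the count tables.

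Transcripts were sequenced from MDA-MB-231, a human cell line established from a triple negative breast cancer (TNBC), in 3 replicates of cells stably expressing a control non-targeted shRNA and 3 replicates of cells stably expressing PELP1 shRNA (PELP1-KD). Both populations were made with lentiviral particles, selected with puromycin and grown in RPMI medium with fetal bovine serum, and a single PELP1 shRNA was used, so that effects of that hairpin on other transcripts and effects of PELP1 loss cannot be told apart. PELP1 is a coregulator of several transcription factors, and the comparison asks which transcripts differ once it is lowered. The labels do not say that replicates came from separate cultures, so p-values measure only the spread between these samples.

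The reads counted on genes were between 17304864 and 23132102 per replicate, and 12796 genes had enough counts to be tested. Values are given in CPM, the read count scaled to a common library size. A log2FC is the log2 fold change of PELP1-KD against control, tested by the quasi-likelihood method of edgeR, and p-values were adjusted by Benjamini-Hochberg over all tested genes. PELP1 itself had 57.2, 56.1 and 60.2 CPM in the controls and 28.6, 29.9 and 30.3 CPM in PELP1-KD cells. For PELP1 this gives a log2FC of -0.97 (edgeR adjusted p-value 1.48e-11, standard error 0.0552). The hormone receptor genes ESR1 and PGR had 3 and 9 reads in all 6 libraries together, the leukocyte gene PTPRC had 0, and VIM was among the most abundant transcripts. ERBB2, the third receptor gene used to class breast cancers, was at 113 CPM ± 3.42 (SD, n = 3) in control cells.

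Of the 8 genes, 6 passed the filter on low counts and 2, TWIST1 and TWIST2, did not. At an adjusted p-value below 0.05, SNAI1 and FN1 were upregulated, ZEB1, ZEB2 and VIM were downregulated, and SNAI2 did not pass. Across all tested genes the same test called 22.7% higher and 24.2% lower, 46.9% in either direction, so that calls are frequent in this comparison. None of the 6 genes passed the study's second criterion, a log2FC beyond 1, which 1.9% of all tested genes passed upward and 1.34% downward. No overlap between the CPM of both groups was seen in 5 of the 6 genes, which held for 55% of all tested genes. As these are bulk samples, a change in the share of cells that express a gene and a change in the RNA per cell cannot be told apart.

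**Figure D1:**
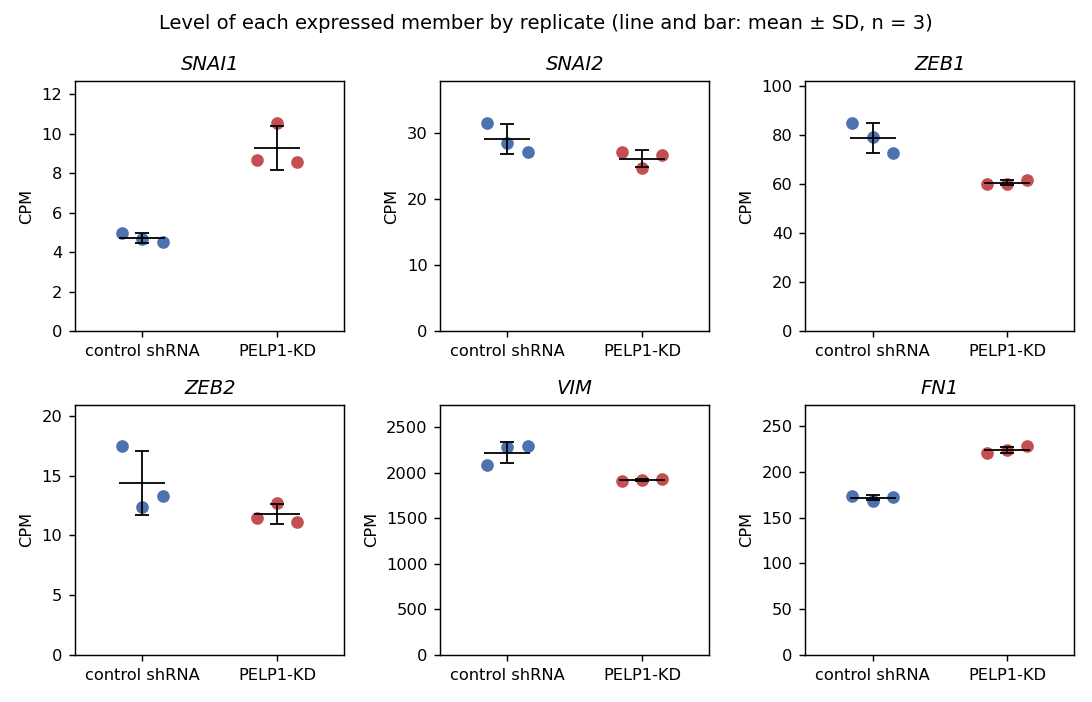
CPM of the 6 genes with counts in each replicate (points) of control shRNA and PELP1-KD cells, each panel with its own axis from 0, with the mean and SD of 3 replicates as a line and bar. SNAI1 and FN1 sit higher in every PELP1-KD replicate, ZEB1 and VIM sit lower, and the replicates of ZEB2 overlap.

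DNA and RNA sequences known to matter for these genes are shown before their values. SNAI, ZEB and TWIST proteins recognise the E-box, written CANNTG, and SNAI and ZEB proteins prefer its form CAGGTG, which reads CACCTG on the other strand. RefSeq promoter windows of 300 bases on GRCh38.p14 were found for ZEB1, ZEB2, VIM, FN1 and TWIST2, with 7 windows for ZEB1, and no entry was found for SNAI1, SNAI2 and TWIST1. CAGGTG or CACCTG occurred in 2 of the 7 ZEB1 windows and in none of the windows of ZEB2, VIM, FN1 and TWIST2, against 20.6% of all 35116 windows. The broader CANNTG, which includes both of these words, occurred in 4 ZEB1 windows and in the ZEB2 window, against 68.7% of all windows. The 4 matches in ZEB1, all on chromosome 10 and on the plus strand, are printed with the E-box in capitals because they are the only ones in these windows:
ZEB1 chr10:31318360-31318365: gaggtgacagCAGGTGagggccgggt
ZEB1 chr10:31318974-31318979: ccccaccaCACCTGaggaaaactt
ZEB1 chr10:31319131-31319136: tgtcgtaaacCAGGTGcggtggggag
ZEB1 chr10:31319249-31319254: cggatggcccCAGGTGtaagcgcaga
A match of letters is a description of the window and not a site of binding.

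ZEB1 and ZEB2 are also known for a double-negative loop with the microRNAs of the miR-200 family, which lower ZEB transcripts and whose own genes the ZEB proteins repress. The mature sequences from RefSeq fall into 2 groups by their seed, bases 2 to 8, shown in capitals:
hsa-miR-200b-3p: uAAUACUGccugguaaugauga
hsa-miR-200c-3p: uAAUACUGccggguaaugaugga
hsa-miR-429: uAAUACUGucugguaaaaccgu
hsa-miR-200a-3p: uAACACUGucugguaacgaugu
hsa-miR-141-3p: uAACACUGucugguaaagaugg
The longest annotated 3′ UTR of ZEB1 in GENCODE held 6 matches to CAGTATT, the reverse complement of the first seed in DNA letters, and 3 to CAGTGTT, that of the second. That of ZEB2 held 5 and 4. With 9 matches each, ZEB1 and ZEB2 were among 6 of 19058 genes with as many, whereas 28.4% of genes had any match. FN1 held 2 matches, SNAI2 held 1, and SNAI1, TWIST1, TWIST2 and VIM held none. A match to each seed is shown for both ZEB genes, with the seed match in capitals and positions on GRCh38:
ZEB1 chr10:31528577-31528583: cttcaaacctggCAGTATTaa
ZEB1 chr10:31528797-31528803: gatttgatttaaCAGTGTTat
ZEB2 chr2:144389053-144389059: actaccatacatCAGTATTtt
ZEB2 chr2:144388711-144388717: gccatccttgtaCAGTGTTaa
The hairpin genes MIR200A, MIR200B, MIR200C, MIR141 and MIR429 are listed with 0 counts in every library. Libraries made from poly(A) mRNA do not capture mature microRNAs, so these zeros give no level for them.

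SNAI1 encodes Snail, a repressor of CDH1 that acts early in EMT and whose protein is short-lived. The gene lies on chromosome 20 of GRCh38, from 49982999 to 49988886 on the plus strand. The controls held 84, 106 and 80 SNAI1 reads and the PELP1-KD libraries 169, 225 and 202, which is 4.97, 4.66 and 4.51 CPM against 8.67, 10.5 and 8.58 CPM. Every PELP1-KD replicate stood well above every control, and the mean rose by 96.6%. The log2FC was 0.98 (standard error 0.12, 95% interval 0.73 to 1.23, edgeR adjusted p-value 1.23e-06). In size this change was larger than those of 96.6% of all tested genes. Without PELP1-KD replicate 2, the highest of the 3, the log2FC of SNAI1 was 0.87, and without PELP1-KD replicate 3 it was 1.03, so that its place just short of a log2FC of 1 is set by single replicates. No 50-base window of its transcript occurs in a transcript of another annotated gene, the processed pseudogene SNAI1P1 included.

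SNAI2 encodes Slug, the closest relative of Snail and a factor of basal-type mammary cells. The gene lies on chromosome 8, from 48917604 to 48921740 on the minus strand. SNAI2 had 31.6, 28.5 and 27.1 CPM in the controls and 27.1, 24.7 and 26.7 CPM in PELP1-KD cells, from between 482 and 647 reads per replicate. The groups touch, with the lowest control at 27.15 CPM and the highest PELP1-KD replicate at 27.09 CPM. Its log2FC was -0.15 (95% interval -0.29 to -0.01, edgeR adjusted p-value 0.0799), which as a fold is 0.816 to 0.996, so the unadjusted p-value of 0.0414 passed and the adjusted one did not. Without control replicate 3 it passed, at a log2FC of -0.20 (edgeR adjusted p-value 0.0399). SNAI3, the remaining member of the family, had between 2 and 8 reads per replicate and was not tested.

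SNAI1 and SNAI2 were also compared within each library, where library scaling has no part. There were 6.36, 6.10 and 6.03 SNAI2 reads for each SNAI1 read in the controls, and 3.12, 2.34 and 3.11 in PELP1-KD cells. The log2 ratio of SNAI2 to SNAI1 was lower in PELP1-KD cells by 1.12 (difference -1.12, standard error 0.141, two-sided exact permutation test p = 0.1, and 0.133 adjusted over 4 pairs of genes). The groups of this ratio did not overlap, and with 3 replicates a side no lower p-value than 0.1 can be reached.

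ZEB1 encodes a zinc-finger homeodomain repressor of CDH1 and of epithelial polarity genes, and it is held to maintain the mesenchymal state. The gene lies on chromosome 10, from 31318495 to 31529814 on the plus strand. ZEB1 had 85.1, 79.1 and 72.6 CPM in the controls and 60.1, 60.2 and 61.7 CPM in PELP1-KD cells. All PELP1-KD replicates lay close together and below all controls, which were more widely spread. The log2FC of ZEB1 was -0.38 (standard error 0.0534, 95% interval -0.49 to -0.27, edgeR adjusted p-value 7.19e-06), and the mean decreased by 23.1%. ZEB1-AS1, the antisense gene that starts beside it and overlaps its first bases, had 6.68 ± 1.07 CPM under control shRNA and 5.85 ± 0.161 CPM under PELP1 shRNA (mean ± SD, n = 3), with a log2FC of -0.17 that did not pass (edgeR adjusted p-value 0.277). The libraries were stranded, but the strand setting of the counting is not given in the sources used here.

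ZEB2 encodes the paralog of ZEB1, also known as SIP1. The gene lies on chromosome 2, from 144364364 to 144524583 on the minus strand. ZEB2 had 17.4, 12.4 and 13.3 CPM in the controls and 11.5, 12.7 and 11.1 CPM in PELP1-KD cells. Control replicate 1 stood apart from the other controls, and the groups overlapped. This was not particular to ZEB2. Over all genes with enough reads, the chi-square per degree of freedom between 2 replicates is about 1 for counting error alone. It was 3.87 and 4.11 for control replicate 1 with replicates 2 and 3, which gave 1.47 together. For PELP1-KD replicate 2 it was 2.75 and 2.71, against 1.51 for replicates 1 and 3. The log2FC of ZEB2 was -0.28 (standard error 0.11, 95% interval -0.50 to -0.05), with an edgeR adjusted p-value of 0.0439. Without control replicate 1 the log2FC was -0.12 (edgeR adjusted p-value 0.306), and DESeq2, with the same log2FC of -0.28, gave an adjusted p-value of 0.074. The ratio of ZEB2 to ZEB1 reads was 0.182 ± 0.0241 (SD, n = 3) in control and 0.194 ± 0.0156 (SD, n = 3) in PELP1-KD cells, a log2 difference of 0.10 with overlapping groups (standard error 0.13, two-sided exact permutation test p = 0.5). SNAI2 reads for each ZEB1 read were 0.371, 0.360 and 0.374 in the controls and 0.451, 0.410 and 0.433 in PELP1-KD cells, a log2 difference of 0.23 without overlap (standard error 0.0431, two-sided exact permutation test p = 0.1).

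TWIST1 and TWIST2 encode closely related bHLH factors that dimerise with E proteins. TWIST1 lies on chromosome 7 from 19020991 to 19117672, and TWIST2 on chromosome 2 from 238848032 to 238910543. Both genes were listed with 0 counts in each of the 6 libraries. A count of 0 allows up to 3 counts, which is between 0.13 and 0.173 CPM per library for counting error alone, so no comparison between groups could be made. The annotation and strand setting of the counting are not given in the sources used here, so a gene missed by the counting and a gene without transcripts cannot be told apart, and this limit holds only if both genes were countable. Of the E-protein partners TCF3 and TCF12 were present, at a log2FC of -0.09 (edgeR adjusted p-value 0.117) and -0.06 (edgeR adjusted p-value 0.298), neither past the threshold. TCF4, a further partner, had 5 reads in all libraries together and was not tested.

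**Figure D2:**
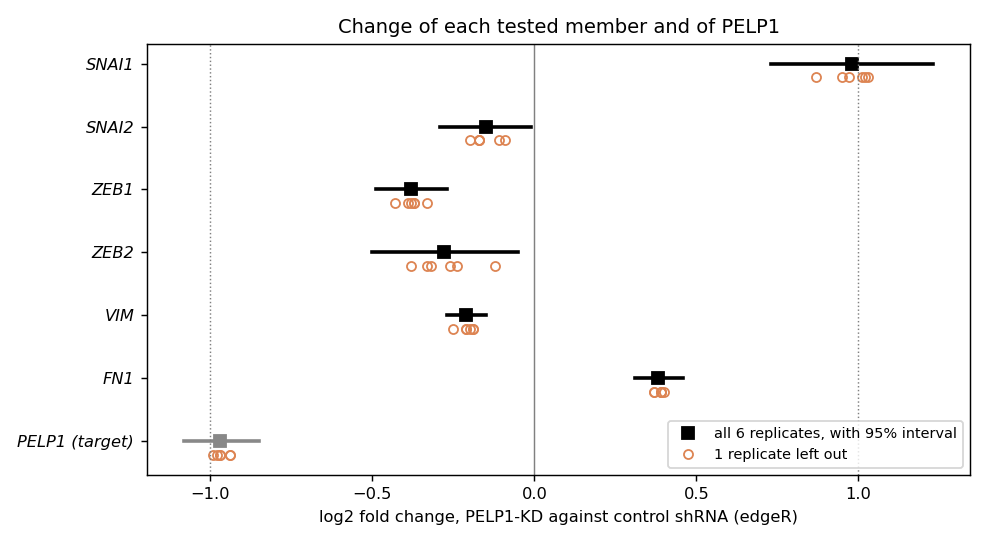
Log2 fold change of PELP1-KD against control shRNA for the 6 tested genes and for PELP1, as squares with 95% intervals from edgeR, with open circles for the values with 1 replicate left out and dotted lines at -1 and 1. SNAI1 lies at 0.98 and FN1 at 0.38, ZEB1, ZEB2 and VIM lie between -0.38 and -0.21, and the ZEB2 circles reach from -0.38 to -0.12.

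To compare levels between genes, CPM was divided by gene length to give RPKM, with the length of all exons of the gene joined. In control cells the order of the 4 factors with counts was ZEB1 at 9.12 RPKM ± 0.722, SNAI2 at 8.57 ± 0.670, SNAI1 at 2.80 ± 0.139 and ZEB2 at 0.574 ± 0.107 (SD, n = 3 each). The replicate ranges of ZEB1 and SNAI2 overlapped, while within each control library ZEB1 was the higher, and their shares of the summed level of the 4 factors did not overlap. In PELP1-KD cells the order was SNAI2 at 7.71 RPKM ± 0.387, ZEB1 at 7.02 ± 0.105, SNAI1 at 5.50 ± 0.658 and ZEB2 at 0.470 ± 0.0328 (SD, n = 3 each). Here no replicate of SNAI2 overlapped ZEB1, and none of ZEB1 overlapped SNAI1. The mean of FN1 lay above those of the factors, at 9.91 RPKM ± 0.170 in control and 12.9 ± 0.204 in PELP1-KD cells, and that of VIM far above, at 431 and 373 RPKM. In control the replicates of FN1 (9.72 to 10.0 RPKM) overlapped those of ZEB1 (8.39 to 9.84 RPKM), while within each library FN1 was the higher. ZEB2 is the gene whose level depends most on the choice of length, since its joined exons span 25058 bases and its longest transcript 9583, and with the latter its control level was 1.5 RPKM. With the longest transcript ZEB1 led SNAI2 in both groups, at 12.6 against 10.3 RPKM in control and 9.68 against 9.25 RPKM in PELP1-KD cells.

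The summed level of the 4 factors overlapped between the groups, at 22.8, 20.8 and 19.6 RPKM in the controls and 20.5, 21.0 and 20.6 RPKM in PELP1-KD cells. The share of SNAI1 in this sum was 13.3% ± 0.354 (SD, n = 3) in control and 26.5% ± 2.83 (SD, n = 3) in PELP1-KD cells. The share of ZEB1 went the other way, from 43.3% ± 0.581 (SD, n = 3) to 33.9% ± 0.791 (SD, n = 3). With the longest transcript as the length, the share of SNAI1 was 10.3% in control and 21.4% in PELP1-KD cells, and that of ZEB1 46.4% and 37.7%. A sum of RNA levels says nothing of the amounts of the proteins.

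**Figure D3:**
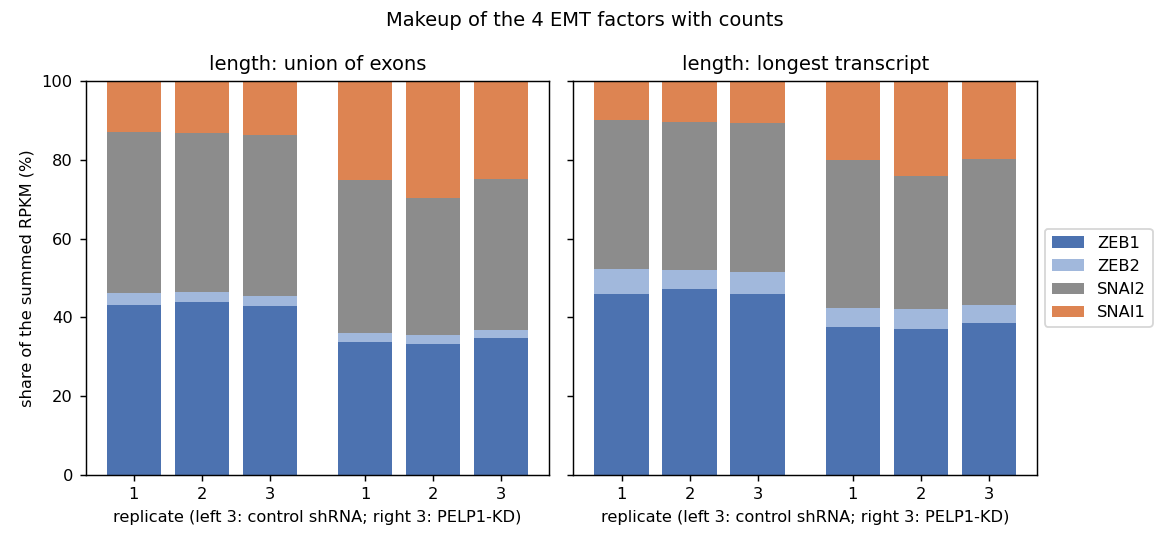
Share of SNAI1, SNAI2, ZEB1 and ZEB2 in their summed RPKM in each replicate, with gene length taken as all exons joined (left) or as the longest transcript (right); the 3 bars on the left of each panel are control shRNA and the 3 on the right PELP1-KD. The SNAI1 part is larger in every PELP1-KD replicate under both lengths.

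VIM encodes vimentin, the filament protein of mesenchymal cells. The gene lies on chromosome 10, from 17228259 to 17237593 on the plus strand. VIM had 2087, 2285 and 2291 CPM in the controls and 1909, 1927 and 1930 CPM in PELP1-KD cells. Every PELP1-KD replicate lay below every control, yet VIM stayed among the most abundant transcripts, above 99.7% of the tested genes with a length in control cells and above 99.6% in PELP1-KD cells on the RPKM scale. The log2FC of VIM was -0.21 (standard error 0.0294, 95% interval -0.27 to -0.15, edgeR adjusted p-value 7.19e-06), and the mean decreased by 13.4%. Of the 50-base windows of VIM transcripts, 20.7% also occur in transcripts of other annotated genes, among them the antisense gene VIM-AS1, which was not analysed here.

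FN1 encodes fibronectin, the matrix protein through which integrins anchor and pull on the pericellular matrix. The gene lies on chromosome 2, from 215360440 to 215436172 on the minus strand. FN1 had 174, 168 and 173 CPM in the controls and 221, 224 and 228 CPM in PELP1-KD cells. Both groups were tight and far apart, with a mean higher by 30.5%. The log2FC of FN1 was 0.38 (standard error 0.0338, 95% interval 0.31 to 0.46, edgeR adjusted p-value 1.08e-08). VIM and FN1, both markers of the mesenchymal state, moved in opposite directions. There were 12.01, 13.6 and 13.3 VIM reads for each FN1 read in the controls and 8.66, 8.62 and 8.48 in PELP1-KD cells, a log2 difference of -0.59 without overlap (standard error 0.0548, two-sided exact permutation test p = 0.1).

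The filament family and its partners were described from lists written for this purpose. Over all tested genes 24.2% were called lower and 22.7% higher. Of 8 tested intermediate filament genes other than keratins, 3 were lower (37.5%) and 1 was higher (12.5%) in PELP1-KD cells. Besides VIM, the nuclear lamins LMNA (log2FC -0.15) and LMNB1 (log2FC -0.18) were lower, and NES, which encodes nestin, was higher (log2FC 0.36). Of 34 tested vimentin partners and modifiers, 18 were lower (52.9%) and 7 higher (20.6%), with a median log2FC of -0.12 where that of all tested genes was 0.0014. Among them KIF5B, the kinesin heavy chain that carries vimentin along microtubules, fell from 597 ± 29.3 to 433 ± 23.6 CPM (mean ± SD, n = 3), with a log2FC of -0.46, and DST, which encodes the plakin linker dystonin, fell with a log2FC of -0.53. PRKCE, a kinase of vimentin, rose with a log2FC of 0.44, and AKT1 with 0.19.

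Of 40 tested fibronectin receptors and matrix assembly partners, FN1 included, 16 were higher (40%) and 11 lower (27.5%), with a median log2FC of 0.08. Over all tested genes the shares were 22.7% and 24.2%. The chains of the classical fibronectin receptor parted: ITGA5, the alpha chain, rose from 129 ± 3.12 to 161 ± 5.78 CPM (mean ± SD, n = 3), with a log2FC of 0.32 (edgeR adjusted p-value 1.29e-06). ITGB1, the beta chain shared by many integrins, fell from 962 ± 17.9 to 853 ± 28.2 CPM (mean ± SD, n = 3), with a log2FC of -0.17 (edgeR adjusted p-value 3.91e-05). ITGB3, the beta chain of a further fibronectin receptor, rose from 3.98 ± 0.456 to 15.3 ± 0.633 CPM (mean ± SD, n = 3), with a log2FC of 1.94. Its alpha partner ITGAV had a log2FC of -0.01 (edgeR adjusted p-value 0.911). LTBP2, a matrix protein related to the latent TGF-beta binding proteins, had the largest rise of the list, a log2FC of 2.05. COL1A1, a chain of type I collagen, rose with a log2FC of 1.61, while ITGA3 (log2FC -0.60) and LTBP1 (log2FC -1.16), which encodes a latent TGF-beta binding protein, fell. COL1A1 and PDGFRB (log2FC 1.53) are also among the fibroblast and pericyte genes of a list of 15 markers of other cell types. Of that list 10 markers were too low to be tested, with at most 25 reads in all libraries together, while the endothelial VWF (log2FC 2.56, from 55 reads) was higher and RGS5 (log2FC -0.56) and CD68 (log2FC -0.33) were lower. Their summed level was between 142 and 150 CPM in the controls and between 158 and 169 CPM in PELP1-KD cells, and their part in the fibronectin group was not tested.

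The other markers of the mesenchymal state were divided. Of 31 tested, 13 were higher (41.9%) and 12 lower (38.7%) in PELP1-KD cells, against 22.7% and 24.2% of all tested genes. Their median log2FC was -0.03. VCAN, which encodes the proteoglycan versican, rose from 1.53 ± 0.0499 to 8.94 ± 0.657 CPM (mean ± SD, n = 3), with a log2FC of 2.54, and SPARC rose with a log2FC of 1.57. S100A4, a calcium-binding protein used as a mesenchymal marker, fell from 34.8 ± 1.11 to 15.7 ± 0.779 CPM (mean ± SD, n = 3), with a log2FC of -1.16, and CDH11, a cadherin of mesenchymal cells, fell from 12.7 ± 0.778 to 0.664 ± 0.18 CPM (mean ± SD, n = 3), with a log2FC of -4.27. CDH2, which encodes N-cadherin, had between 4 and 22 reads per replicate and a log2FC of 0.45 that did not pass (95% interval -0.39 to 1.28, edgeR adjusted p-value 0.375).

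On the epithelial side, CDH1, the E-cadherin gene that SNAI and ZEB proteins repress, had 1, 0 and 4 reads in the controls and 2, 1 and 0 in PELP1-KD cells. At this depth no difference in CDH1 was detectable. EPCAM, an epithelial adhesion gene, was at 9.46 ± 0.732 CPM under control shRNA and 9.57 ± 1.40 CPM under PELP1 shRNA (mean ± SD, n = 3), with a log2FC of 0.03 (95% interval -0.20 to 0.26, edgeR adjusted p-value 0.849). ESRP1, an epithelial splicing factor, and GRHL2, a factor opposed to ZEB1, were not tested, with 12, 9 and 9 reads of ESRP1 in the controls and 4, 7 and 7 in PELP1-KD cells, and 1 read of GRHL2 in all libraries. Of 37 tested epithelial genes held to be repressed by SNAI, ZEB and TWIST, 9 were higher (24.3%) and 11 lower (29.7%), with a median log2FC of 0.03. These shares are near those of all tested genes, 22.7% higher and 24.2% lower. SPINT1, an inhibitor of membrane proteases, rose from 3.78 ± 0.158 to 10.3 ± 0.946 CPM (mean ± SD, n = 3), with a log2FC of 1.43, and the junction gene F11R rose with a log2FC of 0.57. KRT19 fell from 97.8 ± 9.88 to 50.7 ± 2.98 CPM (mean ± SD, n = 3), with a log2FC of -0.95, and the claudin gene CLDN1 fell with a log2FC of -1.08.

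Of 10 tested epithelial identity transcription and splicing factors, 2 were higher (20%) and 5 lower (50%), against 22.7% and 24.2% of all tested genes. EHF, an ETS factor of epithelial cells, fell from 85.7 ± 2.77 to 51.1 ± 2.26 CPM (mean ± SD, n = 3), with a log2FC of -0.75, and the lowly expressed SPDEF and FOXA2 fell with a log2FC of -2.79 and -2.13. ELF3 (log2FC 0.51) and RBM47 (log2FC 0.27) rose, and without control replicate 3 or without PELP1-KD replicate 2 none of the 10 genes passed upward, nor under DESeq2.

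Of the other EMT transcription factors, 28 of 40 were tested, 16 were lower (57.1%) and 7 higher (25%), with a median log2FC of -0.15. Over all tested genes the shares were 24.2% and 22.7%. TEAD1, a partner of YAP on DNA, fell from 366 ± 11.5 to 244 ± 1.64 CPM (mean ± SD, n = 3), with a log2FC of -0.59 (edgeR adjusted p-value 7.14e-12). FOSL1, the AP-1 subunit FRA1 of basal-type tumors, fell from 292 ± 15.4 to 203 ± 3.58 CPM (mean ± SD, n = 3), with a log2FC of -0.53 (edgeR adjusted p-value 4.03e-10). KLF4 fell with a log2FC of -0.49. Among genes with a mean log2 CPM above 0, the largest rises were those of SIX2 (log2FC 0.77), SOX4 (log2FC 0.64) and MSX2 (log2FC 0.41), each with a control mean of at most 4.18 CPM. The change of SNAI1 was larger than any of these.

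Among the chromatin partners of the EMT factors, 47 genes were tested, 15 were lower (31.9%) and 7 higher (14.9%), with a median log2FC of -0.07. Over all tested genes the shares were 24.2% and 22.7%. MTA2, a subunit of the NuRD deacetylase complex, fell from 192 ± 2.76 to 108 ± 6.10 CPM (mean ± SD, n = 3), with a log2FC of -0.83 (edgeR adjusted p-value 1.55e-12). WHSC1, the H3K36 methyltransferase gene now called NSD2, had a log2FC of -0.37, and RCOR1, which encodes the CoREST protein that tethers KDM1A, one of -0.33. MTA1, the paralog of MTA2 (log2FC 0.18), the LIM protein gene WTIP (log2FC 0.26) and the Polycomb gene RING1 (log2FC 0.27) rose. KDM1A, the demethylase recruited by Snail, had a log2FC of 0.07 (adjusted p-value 0.152), EZH2 had -0.09 (adjusted p-value 0.0931) and CTBP1, a corepressor bound by ZEB1, had 0.02 (adjusted p-value 0.648), all by edgeR and none past the threshold. The genes KDM1A, EZH2, CTBP1, TCF3, TCF4, TCF12, ITGAV, VWF, COL3A1, LUM and MYH11 were named for their known roles after their values were seen.

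**Figure D4:**
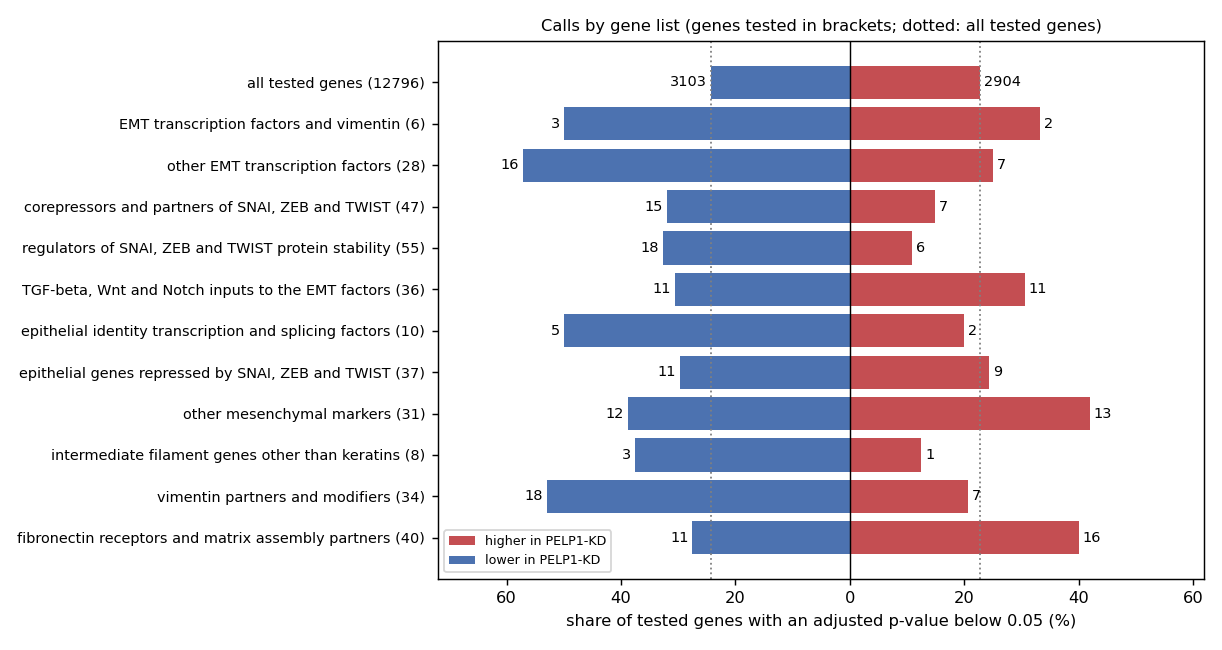
Share of the tested genes of the lists drawn with an adjusted p-value below 0.05, higher in PELP1-KD cells to the right and lower to the left. The number of genes stands at each bar, with dotted lines at the shares of all 12796 tested genes (22.7% higher, 24.2% lower). The lists of breast cancer line genes, markers of other cell types and microRNA host and antisense genes are not drawn. The list of other EMT transcription factors has 16 genes lower and 7 higher, and that of fibronectin receptors and matrix assembly partners has 11 lower and 16 higher.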

How the data were processed

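For each replicate the authors deposited a table of raw, whole-number read counts by gene symbol. The submitters' processing notes name bcl2fastq, TopHat2, SAMtools, HTSeq and the build hg19; versions, annotation and strand setting are not given in the sources used here. Alignments scored as not unique (32.5% to 32.9% of each table's total), in no feature (7.64% to 8.19%) or ambiguous (0.657% to 0.688%) were counted on no gene and left out. As a read with several alignments can enter that total more than once, these percentages are not shares of reads.

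Counts were analysed in R 4.3.3 with edgeR 4.0.16 (filterByExpr with a minimum of 10 counts, TMM, quasi-likelihood test) and in Python 3.11.15. The study used DESeq2, which was kept as an alternative (1.42.0), beside limma voom (3.58.1), RLE, library totals, other filters, a replicate block and leaving out each replicate. Standard errors of an edgeR log2FC were derived from the F statistic and the log2FC, and those of a log2 ratio from the variances within the groups. Coordinates and lengths come from GENCODE release 29 on GRCh38, not from the files' build. Of the 12796 tested genes, 12319 had a length. On simulated counts with 12796 genes, 73 of 100 genes changed by a log2FC of 0.3 and 97 of 100 changed by 1 were recovered. Of 12503 unchanged genes, 12 were called. The simulation gave all genes a single common spread between replicates and changed few genes, whereas 46.9% were called in the data. It therefore checks the procedure and does not give the power of the real comparison.

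The members and lists were chosen with earlier results of these data known. Named genes are the 8 members, a few fixed genes, and the 3 largest called rises and falls of each list with a mean log2 CPM above 0, of which only some are printed.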

Additional observations from a re-analysis of the deposited data

How the results depend on the processing

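SNAI1, FN1, ZEB1 and VIM kept their direction and their side of the threshold under every alternative run: the log2FC lay between 0.87 and 1.03 for SNAI1, 0.37 and 0.43 for FN1, -0.43 and -0.33 for ZEB1 and -0.25 and -0.16 for VIM. ZEB2 did not. Its log2FC was -0.23 with library totals alone (adjusted p-value 0.0939), -0.28 under DESeq2 (adjusted p-value 0.074) and -0.26 under limma voom (adjusted p-value 0.058), none past the threshold, and with replicates left out in turn it lay between -0.38 and -0.12 and was lost without control replicate 1, PELP1-KD replicate 1 or PELP1-KD replicate 3. SNAI2 lay between -0.20 and -0.09 with replicates left out and passed only without control replicate 3. The members called lower were therefore between 2 and 4, and those called higher were 2 throughout. Library totals moved the median log2FC of all tested genes to 0.051. No value reversed its direction.

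Of the list counts, those with few calls moved most. The epithelial identity factors called higher were 0 under DESeq2 and 0 to 1 with replicates left out, where the main count was 2. Without a filter on low counts 2 intermediate filament genes were higher, and with library totals 2 microRNA-circuit genes and 2 genes of the TNBC classification list were higher, where the main count was 1 each; with replicates left out each of these counts lay between 0 and 1, as did that of microRNA-circuit genes called lower. The chromatin partners called higher, 7 as reported, lay between 3 and 7 with replicates left out and between 6 and 10 under the other alternatives, with 10 for library totals. The calls over all tested genes moved as well. In the main fit 2904 genes were higher, against 2459 to 2837 with replicates left out and 3817 with library totals. Genes called lower were 3103 in the main fit and 2723 to 3066 with replicates left out. The cause of the moves in the lists was not tested.

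The labels do not say whether same-numbered replicates were handled together. The correlation of their deviations was 0.039, 0.065 and -0.078 for numbers 1, 2 and 3, which does not decide it. With the replicate number as a block, 3140 of all tested genes were higher and 3335 lower, where the main fit gave 2904 and 3103. Under a replicate block, the log2FC was 0.98 for SNAI1, -0.27 for ZEB2 (adjusted p-value 0.0209 from edgeR) and -0.15 for SNAI2 (adjusted p-value 0.0502), and the block changed no call of the 6 genes. The ratio tests cannot pass at 3 against 3. Low counts limit CDH1, ESRP1, SNAI3, TWIST1 and TWIST2.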

Other observations

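Other groups around the EMT factors were also measured. Over all tested genes 24.2% were called lower and 22.7% higher. Of 55 tested regulators of SNAI, ZEB and TWIST protein stability, 18 were lower (32.7%) and 6 higher (10.9%) in PELP1-KD cells, with a median log2FC of -0.06. CTDSPL, a small phosphatase of the family that acts on Snail, fell from 119 ± 4.88 to 69.5 ± 2.40 CPM (mean ± SD, n = 3), with a log2FC of -0.78, and MAPK14, the p38 kinase, fell with a log2FC of -0.39. LOXL3, a lysyl oxidase-like enzyme known to bind Snail, rose from 4.82 ± 0.359 to 7.82 ± 0.193 CPM (mean ± SD, n = 3), with a log2FC of 0.69. Of 36 tested genes for TGF-beta, Wnt and Notch inputs to the EMT factors, 11 were higher (30.6%) and 11 lower (30.6%). AXIN2, a feedback target of Wnt signaling, rose with a log2FC of 0.71, and NOTCH3 with 0.73, while JAG1, a Notch ligand, fell with a log2FC of -0.77 and TGFBR2, the type II TGF-beta receptor, with -0.38. A list of genes used to class breast cancer lines mixes genes high in TNBC lines with luminal and receptor genes low in them. Of its 12 tested genes, 8 were lower (66.7%) and 1 was higher (8.33%). The lower ones were ANXA1, AXL, CAV1, CAV2, CD44 and EGFR of the first kind and FOXA1 and KRT8 of the second, and the higher one was XBP1, also of the second. AXL, CAV1, EGFR, FOXA1 and KRT8 were named after their values were seen. The list had a summed level between 5230 and 5435 CPM in the controls and between 4372 and 4427 CPM in PELP1-KD cells. In the list of microRNA host genes and antisense genes, 5 were tested, and DICER1, the microRNA-processing enzyme, was higher (log2FC 0.16). Of the 15 markers of other cell types 5 were tested, 3 higher (60%) and 2 lower (40%).

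As a description over the 6 libraries, which fall into 2 groups, the genes whose log2 CPM was most like that of each called member by Pearson's r were TRAPPC1 and ZNF804A for SNAI1, AASS and SOCS6 for ZEB1, TMEM184C and PPP6R3 for ZEB2, TRAF6 and PFDN5 for VIM, and SPARC and ENC1 for FN1. The r was between 0.986 for ZEB2 with PPP6R3 and 0.9993 for ZEB1 with AASS. For FN1 the r was 0.9990 with SPARC (log2FC 1.57) and 0.9986 with ENC1 (log2FC 0.45). With 6 libraries in 2 groups, r mostly reflects the difference between the groups, so these ranks do not link the genes.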
